A study of Saccharomyces cerevisiae with 72 samples.

Results

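The comparison of strain D with strain C sets the sld3-R(2A) allele against SLD3 in budding yeast (Saccharomyces cerevisiae) depleted of Pph3. Its members are the 22 replication libraries of these strains, 11 of each, chosen by strain label out of the 72 samples of the series. Strain D carried PPH3-AID and sld3-R(2A)-13myc, and strain C carried PPH3-AID and SLD3-13myc. Both were W303 MATa haploids with swe1 deleted, cse4 replaced by a CSE4-HA6 copy at leu2, CDC55 fused to AID, and the auxin receptor osTir1 driven by the GPD1 promoter at his3. Cells were held in G1 by alpha factor, auxin (IAA) was added while the culture was warmed so that the AID-tagged proteins were degraded, and the cells were released into medium with IAA. Samples were taken at 15, 20, 25, 30, 35, 40, 45, 50, 60, 70 and 80 minutes after release. Each strain and minute had 1 library, so no difference given here has a replicate check and no p-value is given. Strain B (sld3-R(2A)-13myc) and strain A (SLD3-13myc), which differ from D and C in having an untagged PPH3, were used for an order of replication that does not come from C and for the same allele with Pph3 present.

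Replication starts at origins spread along each chromosome, some of which fire early in S phase and others late or only in a share of cells. Sld3 is an initiation factor that joins licensed origins and, once phosphorylated by cyclin-dependent kinase, helps to activate the replicative helicase. Sld3 is among the factors whose supply limits how many origins fire at a time. Cdc55 is a regulatory subunit of the phosphatase PP2A and Pph3 is the catalytic subunit of PP4, and the AID fusion of Cdc55 in every strain means that no library had undisturbed PP2A-Cdc55.

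The deposited tables list a ratio per 1-kb bin, which sets S-phase reads against G1 reads of the same strain and is multiplied by a scale factor. That factor sets the mean ratio of a library and is read here as bulk DNA content, with 1 for unreplicated and 2 for replicated DNA. The 11 libraries of a strain share 1 G1 denominator. Of 11331 bins listed in any table, the 11277 listed in all 44 were used. Noise of single bins, from neighbouring bins, lay between 0.0431 and 0.0693 of the library median in D and C. The depth of sequencing is unknown, as the tables hold no read numbers. As a check of labels and build, 2 of the 4 bins over SWE1 (chrX:77001-79000, sacCer3) were listed in none of the 44 tables, whereas the bins over PPH3, CDC55 and SLD3 were listed and so do not check those labels.

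Bulk DNA content rose later in strain D. Its scale factor was 1.11, 1.04, 1.16, 1.275, 1.33, 1.425, 1.59, 1.752, 1.84, 2.0 and 1.98 from 15 to 80 minutes in D, against 1.06, 1.08, 1.22, 1.35, 1.51, 1.67, 1.83, 1.89, 1.99, 2.0 and 1.91 in C. The factor of D was the lower one at each minute from 20 to 60 and the higher one at 15 and 80 minutes. A factor of 1.5 was reached at 42.3 minutes in D and at 34.6 minutes in C, a gap of 7.68 minutes. With 25% of the DNA replicated by this measure the gap was 2.76 minutes, and with 75% replicated it was 7.44 minutes.

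The centre of the bin differences follows the factors by construction, since these set the mean ratio of each library. The median D minus C difference in ratio was 0.051 at 15 minutes, -0.036 at 20, -0.062 at 25, -0.057 at 30, -0.174 at 35, -0.26 at 40, -0.253 at 45, -0.169 at 50, -0.145 at 60, -0.005 at 70 and 0.067 at 80 minutes. D was lower than C in 89.1% of bins at 40 minutes and in 51.0% at 70 minutes. With each library divided by its own median, which removes the scale factor, the D minus C differences had a standard deviation over bins of 0.0816 at 15 minutes, where the bin noise of the pair alone gives 0.0821. Averaged over 5 kb, that standard deviation was 0.037 at 15 minutes and 0.106 at 35 minutes. The profiles of the strains thus differed over single bins by no more than bin noise at 15 minutes, and by more than that at 35 minutes, on the scale that ignores bulk content.

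The largest separation of early and late bins was smaller in D and came later. The bins were ordered by Trep in C, a choice that favours a large contrast in C. In the 10% of bins that replicated first in C, the median ratio was 1.43 in D and 1.77 in C at 30 minutes, 1.64 in D and 1.99 in C at 35 minutes, and 2.16 in D and 2.04 in C at 50 minutes. In the 10% of bins that replicated last in C it was 1.24 in D and 1.204 in C at 40 minutes, 1.32 in D and 1.60 in C at 50 minutes, and 1.55 in D and 1.93 in C at 60 minutes. The early-to-late ratio, in which the scale factor cancels, had its maximum of 1.64 at 50 minutes in D and of 1.76 at 40 minutes in C. At 60 minutes it was still 1.30 in D, against 1.05 in C. At 20 minutes the early bins lay below the late bins in every strain, with an early-to-late ratio of 0.900 in D, 0.835 in C, 0.927 in B and 0.853 in A. The late bins of C also rose to 1.33 at 30 minutes and then lay at 1.204 at 40 minutes. Those of D went from 1.29 to 1.24 between the same minutes. These departures mean that a low ratio is not read as a start of replication in late bins below, and without the 15 and 20 minute libraries the median delay of D given next was 7.41 minutes.

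**Figure D1:**
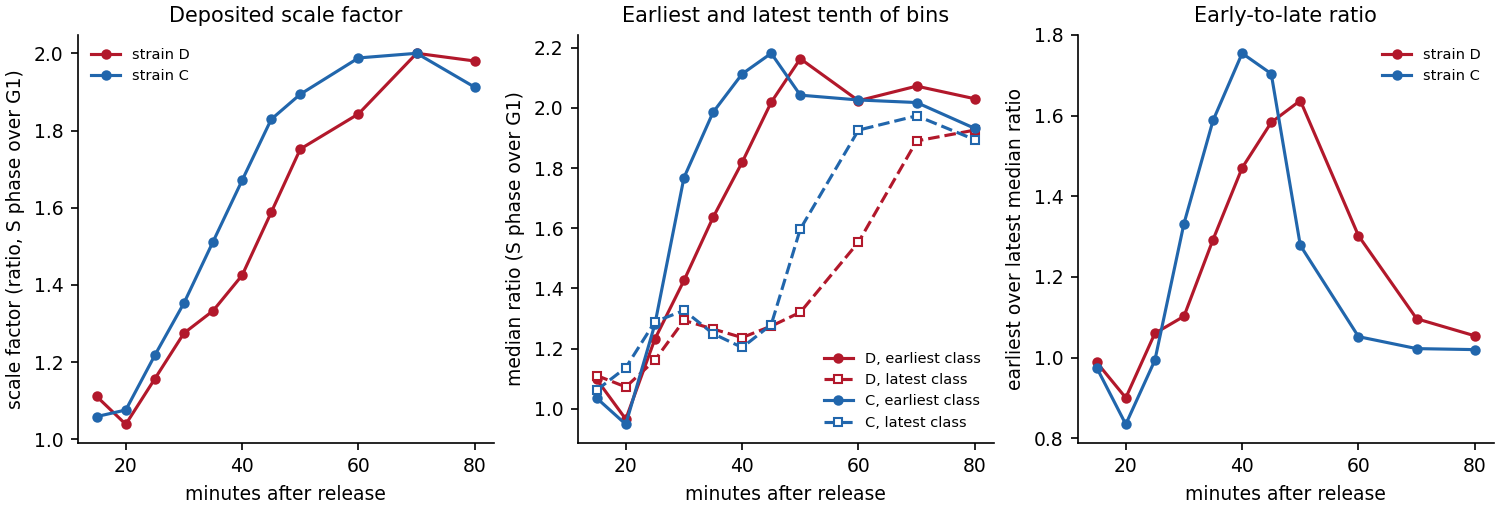
Deposited scale factor (left), median ratio of the earliest and latest 10% of bins as ordered in C (middle) and their early-to-late ratio (right), each against minutes after release, with 1 library per point, D in red and C in blue. From 30 minutes on the D curves of the factor and of the earliest bins rise later than those of C, the curves of the latest bins part after 45 minutes, and the early-to-late ratio of D peaks at 1.64 at 50 minutes, against 1.76 at 40 minutes in C.

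Most of the genome replicated later in strain D. Trep, the replication time, was read where the 5-kb running mean of a bin (3 or more bins listed), fitted so as never to fall with time, passed a ratio of 1.5. Over the 11260 bins with a value, the median Trep was 44.1 minutes in D and 36.3 minutes in C. The median D minus C difference was 7.40 minutes, with quartiles of 5.25 and 9.62 minutes, and 99.7% of bins were later in D. Trep was spread over 26.8 minutes in D and 20.7 minutes in C between the 5th and 95th percentiles of bins. Bin noise alone gave a single difference an error of 1.38 minutes, estimated from odd and even bins of the same libraries in 10-kb windows. Error shared by a whole library, its denominator or its factor is not in that value. The standard deviation over bins was 3.02 minutes. The delay is therefore uneven along the genome by more than bin noise. Replacing the factors of both strains by their mean at each minute left a median difference of 3.16 minutes. This gives both strains the same bulk content at each minute, but a lag in the shape of the profiles stays. The 3.16 minutes are thus not read as a delay beyond bulk. With these shared factors 90.2% of bins were later in D and 1101 (9.78%) were earlier.

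With each strain's own factors, replication in D was drawn out as well as late in early bins. The levels used here are ratios on the deposited scale, so the times between them depend on the factors. The factor itself passed the 25% level at 28.9 minutes in D and 26.2 minutes in C. It passed the 75% level at 49.9 minutes in D and 42.5 minutes in C. Whether the time between the levels is longer in D beyond bulk content was not tested. In the class of bins that was earliest in C, the ratio needed 12.5 minutes in D and 5.52 minutes in C to go between the levels of 25% and 75% replicated. That class reached 25% at 25.5 minutes in D and 24.4 minutes in C, a median difference of 1.06 minutes. It reached 75% at 38.0 minutes in D and 29.9 minutes in C, a median difference of 8.08 minutes. Over all bins the 75% level was reached later in D by a median of 9.86 minutes. The time between the 2 levels was longer in D by a median of 6.90 minutes in this class and 6.49 minutes over all bins. Among classes 1 to 6 by the order in C this value ran from 5.01 minutes in class 6 to 6.90 minutes in class 1. In late bins the 25% level is not read as a start of replication. Class 9 passed it at 29.1 minutes in D, before class 7 at 35.8 minutes, and classes 8 to 10 passed it before class 7 in both strains. The time between the 2 levels is therefore not read in late bins, and the value over all bins includes them.

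The delay depended on replication order. Bins were put into 10 classes of 1126 bins by Trep in C. The median delay of D was 4.46 minutes in class 1 (earliest), 6.17 in class 2, 7.07 in class 3, 8.24 in class 4, 7.78 in class 5, 7.30 in class 6, 7.78 in class 7, 8.28 in class 8, 8.66 in class 9 and 9.33 in class 10 (latest). Most of the increase lay between classes 1 and 4, and classes 4 to 9 lay between 7.30 and 8.66 minutes. The latest class was delayed by 4.86 minutes more than the earliest, a gap that was 3.05 minutes without the 60 minute libraries, 3.10 minutes without the 50 minute libraries and 5.69 minutes without the 45 minute libraries. Of bins later in D by over 10 minutes there were 2453 of 11260, or 21.8%, and their share was 0.444% in class 1, 28.3% in class 4 and 41.5% in class 10. There were 102 such bins, or 0.906%, with the shared factors, and their share was 0% in classes 1 and 4 and 7.02% in class 10.

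Since Trep of C enters both the order and the difference, the classes were also drawn from strains whose libraries do not enter it. By the order in A the delay was 4.72 minutes in the earliest class, 7.98 in class 4 and 8.10 in the latest class. By the order in B it was 4.30, 7.95 and 8.995 minutes in those classes. With each strain's own factors, the smaller delay of the earliest bins thus appeared with each of the 3 orders. By the order in A the median stood at 8.35 minutes in class 5 and 7.51 in class 9, so that the latest class lay within the range of the classes from 4 on. With the shared factors the class medians ran between 2.19 minutes in class 6 and 5.61 minutes in class 10, with 2.81 minutes in class 1. With the shared factors and the order in A the latest class exceeded the earliest by 1.54 minutes. Within chromosomes, with each strain's own factors and the order in C, the latest class was delayed more than the earliest on all 13 chromosomes that had at least 5 bins of each. Chromosome V, with 3 bins in the latest class, went the other way, with 1.09 minutes in the latest and 4.59 minutes in the earliest. With the order in A, all 16 chromosomes had enough bins and the latest class was delayed more on 13 of them, the exceptions being V, VI and XVI. The numbers with the shared factors were 10 of 13 by the order in C and 12 of 16 by the order in A.

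**Figure D2:**
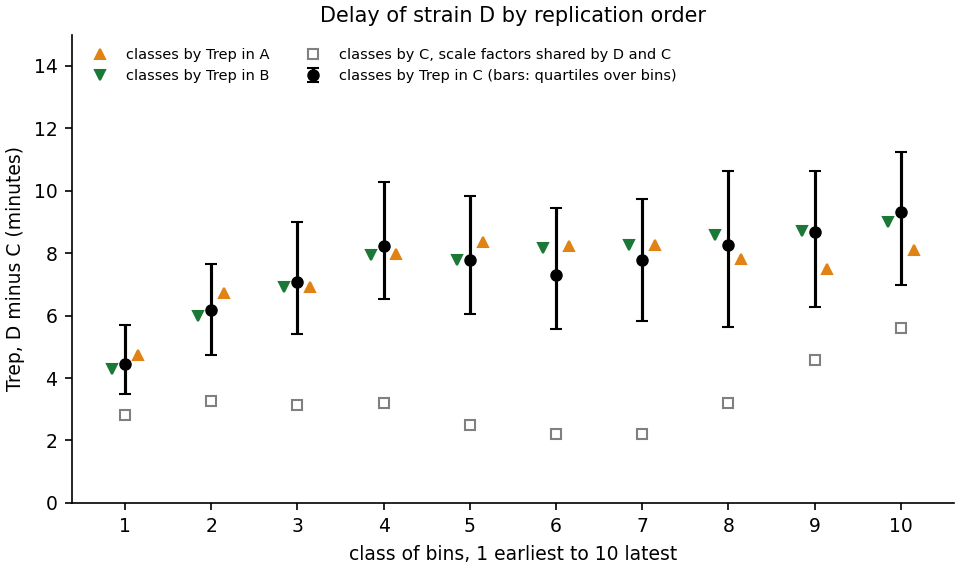
Median D minus C difference in Trep (minutes) in 10 classes of bins from earliest to latest, ordered by C (black, bars are quartiles over bins), A (triangles up) or B (triangles down), and with scale factors shared by D and C (squares). The earliest class stands at 4.46 minutes by C, 4.72 by A and 4.30 by B, below every later class of the same order, and with shared factors it stands at 2.81 minutes, inside the range of the other classes.

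All 16 chromosomes were later in D as a whole, by medians from 4.89 to 9.42 minutes. Chromosome VI was delayed least, with a median Trep of 40.0 minutes in D and 35.3 minutes in C and a difference of 4.89 minutes. Chromosome III followed with 38.7 minutes in D and 32.0 minutes in C, a difference of 5.19 minutes, and chromosome I with 43.5 minutes in D and 38.4 minutes in C, a difference of 5.50 minutes. These are also the shortest chromosomes of yeast. Chromosome IV, the longest in these tables, was delayed most, with 50.2 minutes in D and 41.5 minutes in C and a difference of 9.42 minutes. Chromosome VIII had 46.0 minutes in D and 37.3 minutes in C, a difference of 8.56 minutes, and chromosome XIV had 49.8 minutes in D and 40.97 minutes in C, a difference of 8.31 minutes. Of bins delayed by over 10 minutes, chromosome IV held 41.5% of its own bins, chromosome III 0.694% and chromosome V 0.366%, beside 21.8% of all bins.

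Part of this range goes with order, since 32.6% of the bins of chromosome III and 6.34% of those of chromosome IV were in the earliest class. With the class median subtracted from every bin, chromosome VI still lay 1.41 minutes below and chromosome IV 1.21 minutes above it. Over the 16 chromosomes the delay had a Spearman rho of 0.541 with length and 0.679 with median Trep in C, as a description of values that come from the same libraries. With the shared factors the medians ran from 1.78 minutes on chromosome VI to 4.33 minutes on chromosome IV, so that both ends of the order stayed in place. Chromosomes VI and III were among the 3 least delayed under each of 5 other ways of computing Trep and without any single minute, and chromosome IV was the most delayed under all of them.

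The order of chromosomes within a minute turned over during S phase. At 35 minutes the largest shortfall of D in ratio was on chromosome V, with a median difference of -0.261, and the smallest was on chromosome XIV, with -0.0925. At 60 minutes the largest shortfall was on chromosome IV, with -0.245, and the smallest was on chromosome VI, with -0.0290. With each library divided by its median, chromosome IV differed by -0.063 at 60 minutes and chromosome III by 0.053. D was the lower strain on all 16 chromosomes at each minute from 25 to 45 and at 60 minutes, and on none at 15 and 80 minutes.

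**Figure D3:**
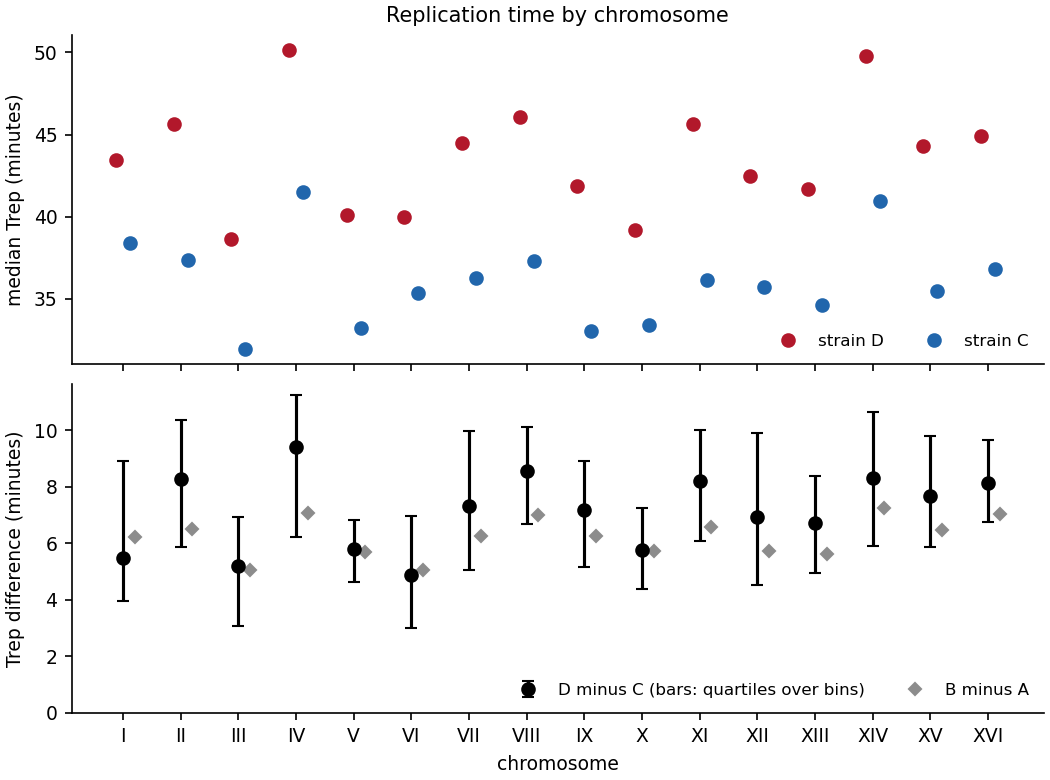
Median Trep per chromosome in D (red) and C (blue), in minutes (upper panel), and median difference in Trep for D minus C (black, bars are quartiles over bins) and B minus A (grey diamonds), in minutes (lower panel). Every D point lies above its C point, and the black points run from 4.89 minutes on chromosome VI to 9.42 minutes on chromosome IV.

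Chromosome ends were delayed less than the rest. The 854 bins within 30 kb of an end had a median Trep of 44.8 minutes in D and 39.8 minutes in C and a median difference of 5.95 minutes, against 7.52 minutes in the other 10406 bins. With each bin given the median delay of its order class in C, the median was 7.78 minutes for the end bins. It was also 7.78 minutes for the other bins. Only 31 bins, or 0.275%, were earlier in D than in C, and 17 of them lay within 30 kb of an end. A larger number, 1101 bins, was earlier in D with the shared factors, 316 of them within 30 kb of an end, and the median difference was 1.06 minutes in the end bins and 3.27 minutes in the others. A further 11 made up 1 block at chrXII:314001-325000 (sacCer3), where Trep was 44.1 minutes in D and 45.6 minutes in C and the largest advance was 1.67 minutes. The mean ratio of that block was 1.22, 1.203, 1.49 and 1.80 at 35, 40, 45 and 50 minutes in D, against 1.16, 1.12, 1.42 and 1.76 in C. D was also higher there at 15 minutes, with 1.15 against 1.05 in C, and at 80 minutes, with 2.07 against 1.89 in C, before and after most replication. An advance of this size is close to the 1.38 minutes of error that bin noise alone gives a single difference. The median difference over the block was -0.666 minutes with each strain's own factors and -3.83 minutes with the shared factors.

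Delays beyond 15 minutes were few. Trep was later in D by over 15 minutes in 58 bins, or 0.515%, in 28 runs of which 15 were a single bin. The longest run, of 9 bins, was chrXII:874001-883000, which holds CSR1, CTF3 (a kinetochore protein), SEC61 (the channel of the protein translocon), parts of FBP1 (a gluconeogenic phosphatase) and NAM2 (a mitochondrial leucyl-tRNA synthetase), and a tRNA gene. Its median ratio at 45, 60 and 70 minutes was 1.22, 1.35 and 1.79 in D, against 1.27, 1.96 and 2.14 in C. Its median Trep was 64.4 minutes in D and 47.7 minutes in C, while it was 46.2 minutes in B and 38.8 minutes in A. With the shared factors the run was 13.9 minutes later in D.

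Among 4 runs of 4 bins each, chrIV:46001-50000 holds HO, the endonuclease of mating-type switching, and chrIV:226001-230000 holds LYS21 (lysine synthesis), STF1 and parts of CDC53 (the cullin of SCF ubiquitin ligases) and RPP1B (a ribosomal stalk protein). The HO run had median ratios of 1.30, 1.31, 1.32 and 1.55 at 40, 45, 50 and 60 minutes in D, against 1.49, 1.59, 1.77 and 1.93 in C, and a median Trep of 57.5 minutes in D and 40.5 minutes in C. The LYS21 run had 1.2485, 1.35, 1.49 and 1.60 in D, against 1.65, 1.7465, 2.09 and 2.11 in C, and a median Trep of 51.2 minutes in D and 35.6 minutes in C. The others were chrIV:1492001-1496000, with a median difference of 16.5 minutes, and chrVII:59001-63000, with 17.6 minutes. The shared factors lowered these differences more than that of the longest run, to 9.03 minutes in the HO run, against 17.0 with own factors, and to 8.69 minutes in the LYS21 run, against 15.5 with own factors. They left 5.26 minutes in the run at chrIV:1492001-1496000 and 9.18 minutes in that at chrVII:59001-63000. Over all bins, 1 was later by over 15 minutes with the shared factors. In the 3 runs whose ratios are given, C was the higher strain at each minute from 40 to 70. These bins were chosen for the size of the difference, so these values describe the extreme of the distribution.

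Peaks of the ratio along a chromosome can lie where forks started. No annotation of origins was used, so the peaks called here are not read as origins. A peak was called where the smoothed profile (5 kb) was highest among its neighbours up to 10 kb away and stood out by over 3 times the bin noise, in the library of a strain with the widest spread of ratios. Strain D had 55 peaks at 45 minutes and strain C had 92 at 35 minutes. Within 5 kb, 22 peaks were shared, 40% of the D peaks and 23.9% of the C peaks. Of all bins, 8.57% lay within 5 kb of a C peak and 5.13% within 5 kb of a D peak. The count was 8 within 2 kb and 31 within 10 kb, so it depended on the distance, and no share of all bins is given for these distances. With a prominence of 5 times the noise in both strains, 9 were shared within 5 kb. That count is between 2 other lists of peaks, so it is not set beside the 22 of 92.

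Each strain stood higher at its own peaks in a box of the very 5 kb that chose them. In strain C, the bins within 2 kb of a C peak exceeded the bins 3 to 5 kb away by 0.0382 of the library median at 15 minutes, 0.0792 at 35 minutes and 0.0424 at 80 minutes. The same step at C peaks lay between -0.00227 and 0.00975 over the 11 minutes in D. At D peaks the step lay between 0.0243 and 0.0785 in D and between -0.00257 and 0.0157 in C. The step was thus present in the strain that chose the peaks also at 15 and 80 minutes, when early and late bins differed little, and its cause was not tested. Readings at the C peaks are therefore given beside readings 6 to 10 kb away and at the 111 peaks of strain A, which were picked from other libraries.

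At the C peaks the median delay of D was 8.76 minutes, with a lowest value of 2.15 and a highest of 20.1 minutes, beside 7.40 minutes over all bins. In the bins 6 to 10 kb from the C peaks it was 7.63 minutes, and at the A peaks it was 8.43 minutes. The delay at peaks was thus larger than in all bins by 1.36, 0.227 and 1.03 minutes in these 3 readings, where the excess at C peaks had a standard deviation of 1.82 minutes over chromosomes. It was smaller than in all bins by 0.358 minutes with a prominence of 5 times the noise and by 2.36 minutes at the D peaks. No direction for peaks against the rest of the genome is read from these values. Of the C peaks, 34 (37.0%) were delayed by over 10 minutes, as were 36.04% of the A peaks and 4 of the 55 D peaks (7.27%), beside 21.8% of all bins.

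Within the peaks the delay was larger at later ones. Split by Trep in C, the earliest 31 C peaks had a median Trep of 31.7 minutes in D and 26.7 minutes in C and a delay of 4.89 minutes. The middle 30 had 38.3 minutes in D and 30.0 minutes in C and a delay of 8.96 minutes. The latest 31 had 46.9 minutes in D and 33.8 minutes in C and a delay of 12.8 minutes. Split by Trep in A, the A peaks gave 5.07, 8.59 and 11.02 minutes in the same order, with 37 peaks in each. Over all bins in the Trep ranges of the 3 groups of C peaks the delay was 4.30, 6.24 and 7.95 minutes. The 3 groups of C peaks had 3.05, 4.12 and 6.00 minutes with the shared factors. A D peak lay within 5 kb of 7 of 31 (22.6%), 14 of 30 (46.7%) and 1 of 31 (3.23%) C peaks in the 3 groups. Of all bins in the same ranges of Trep in C, 19.0%, 14.7% and 1.77% lay that near to a D peak, so that the first and the last share were close to those of all bins.

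**Figure D4:**
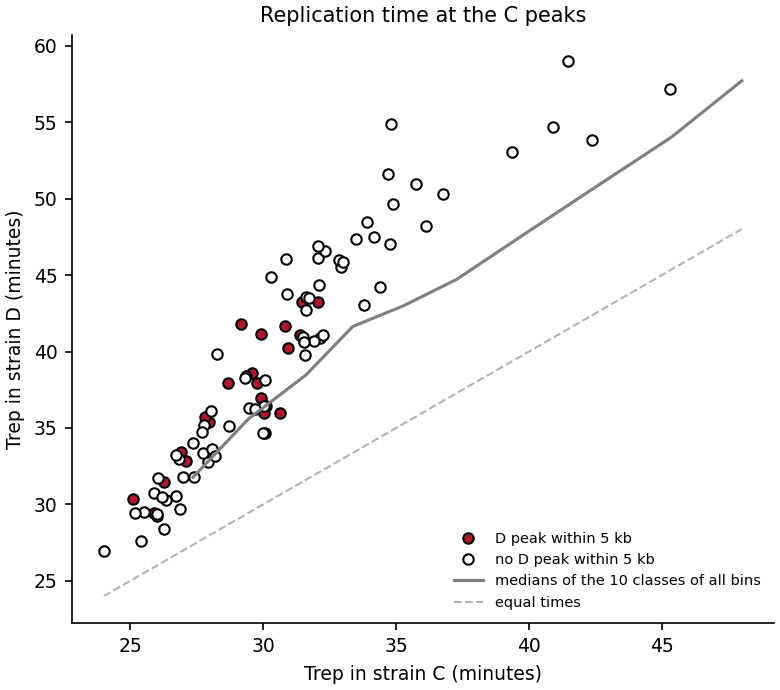
Trep in D against Trep in C, in minutes, at the 92 C peaks, filled where a D peak lies within 5 kb. All points lie above the dashed line of equal times, and the later peaks lie farther above it and above the grey line through the medians of the 10 classes of all bins; C is read in the windows that chose the peaks.

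At 35 minutes peaks were also lower in D on the scale without bulk content. The median ratio over the library median was 1.08 in D and 1.26 in C at the C peaks, with D lower at 91 of 92. The C peaks were called in C at this minute, which favours that count. At the A peaks it was 1.06 in D and 1.197 in C, with D lower at 92 of 111. The median difference was -0.156 at the C peaks, -0.0998 at the A peaks and -0.0894 in the bins 6 to 10 kb from the C peaks. In all bins of classes 1, 2 and 3 by the order in C it was -0.110, -0.139 and -0.137. The lowering was thus not particular to peaks. At 45 minutes the sign was the other one, with 1.13 in D and 1.10 in C at the C peaks and 1.08 in D and 1.06 in C at the A peaks. At that minute D was lower at 35 of the 92 C peaks and at 40 of the 111 A peaks. Around the A peaks, the centre exceeded the bins 21 to 30 kb away by 0.0553 in D and 0.136 in C at 30 minutes, by 0.0685 in D and 0.148 in C at 35 minutes, and by 0.0650 in D and 0.0838 in C at 40 minutes. The largest of these contrasts in D over the minutes from 30 to 50 was below the largest in C, at C peaks and A peaks alike.

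**Figure D5:**
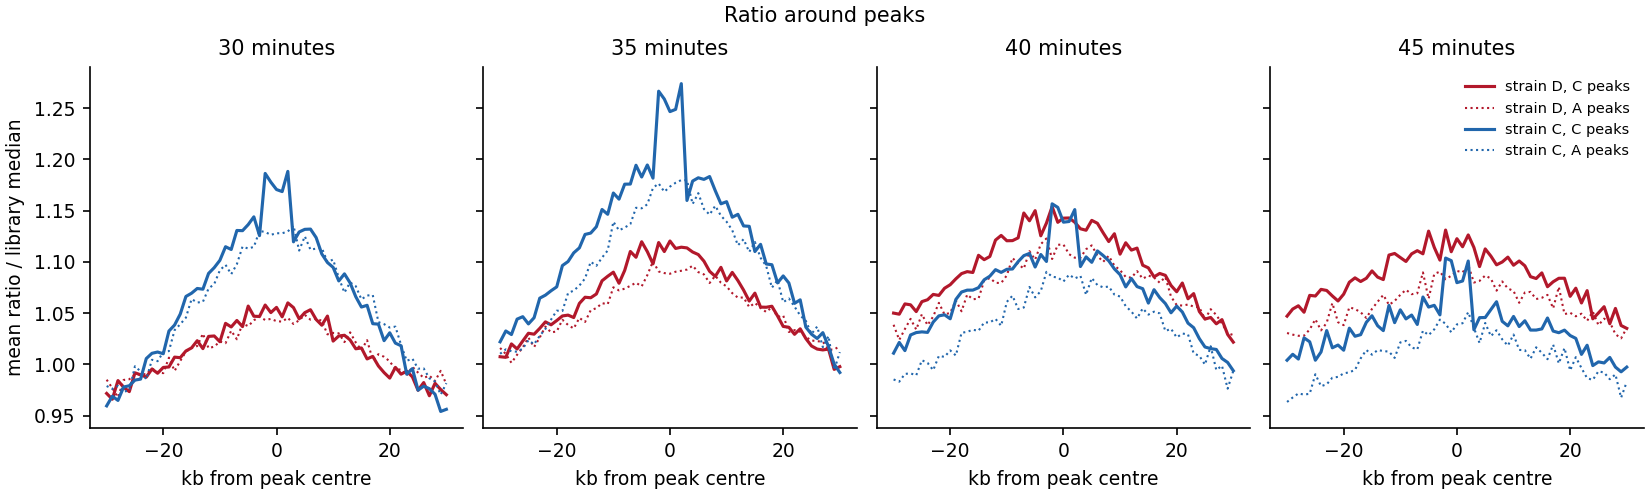
Mean ratio over the library median against distance from the peak centre in kb, at 30, 35, 40 and 45 minutes, in D (red) and C (blue), around C peaks (solid) and A peaks (dotted). C stands above D at the centre at 30 and 35 minutes and not at 40 and 45 minutes around the A peaks; the sharp 5-kb box of C around C peaks, with a step of 0.0792 at 35 minutes, is absent from both dotted lines.

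The earliest C peaks were moved by a few minutes in D. The peak at chrI:174001-175000, in CDC15 (a kinase of the mitotic exit network), had Trep at 27.0 minutes in D and 24.002 minutes in C. Its 5-kb ratio at 25, 30, 35 and 40 minutes was 1.42, 1.63, 1.74 and 1.93 in D, against 1.61, 2.04, 2.19 and 2.23 in C. D had already gained DNA at 25 minutes there, and the strains were farthest apart between 30 and 40 minutes. The peak at chrIII:77001-78000, in AGP1 (an amino acid permease), had Trep at 27.6 minutes in D and 25.4 minutes in C, and its ratio at the same minutes was 1.37, 1.62, 1.84 and 1.99 in D, against 1.45, 2.08, 2.25 and 2.28 in C. The peak at chrII:232001-233000, in UTP20 (a ribosome biogenesis factor), had 29.5 minutes in D and 25.5 minutes in C. The peak at chrIV:1156001-1157000, next to HXT7 (a hexose transporter), had 29.4 minutes in D and 25.2 minutes in C. The peak at chrXIII:263001-264000, in YML003W, had 30.4 minutes in D and 25.1 minutes in C, and a D peak lay in the same bin. The delay of these 5 peaks ran from 2.18 to 5.27 minutes, and from 1.03 to 3.44 minutes with the shared factors. Without smoothing the CDC15 peak had 0.318 minutes in place of 2.97, and without the 25 minute libraries the AGP1 peak had 3.45 minutes in place of 2.18.

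The smallest delays were found at early peaks too. The peak at chrXII:376001-377000, in AVL9 (secretory transport), had Trep at 28.4 minutes in D and 26.3 minutes in C and a delay of 2.15 minutes, the smallest of the 92. The peak at chrIV:916001-917000, in ADK1 (adenylate kinase) and beside the histone genes HTA1 and HTB1, had 29.7 minutes in D and 26.9 minutes in C. The peak at chrV:97001-98000, in BUD16, had 29.2 minutes in D and 26.01 minutes in C. The AGP1 and CDC15 peaks were the other two of the 5 smallest. In the bins 6 to 10 kb away the delay was 1.76 minutes at AVL9, 3.44 at ADK1, 3.78 at BUD16, 1.58 at AGP1 and 3.48 minutes at CDC15, so these places were little delayed outside the choosing window as well. The sizes are not well fixed, since bin noise alone gave a single difference an error of 1.38 minutes. The AVL9 peak had 0.562 minutes without smoothing and 3.85 minutes with the 15 minute library as denominator. The ADK1 peak, at 2.82 minutes, had 0.667 minutes with that denominator and 1.67 minutes without the 30 minute libraries, and the CDC15 peak had 4.85 minutes. With the shared factors the 5 delays ran from 0.978 to 1.99 minutes.

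The largest delays were read at peaks with Trep in C after the median C peak, at 30.0 minutes, and with prominences of 0.205 to 0.285 of the library median. The peak at chrVII:976001-977000, in YAP1802 (a clathrin assembly protein), had Trep at 54.9 minutes in D and 34.8 minutes in C, a delay of 20.1 minutes. Its 5-kb ratio at 35, 40, 45, 50 and 60 minutes was 1.29, 1.29, 1.36, 1.31 and 1.68 in D, against 1.51, 1.50, 1.65, 1.85 and 2.08 in C. The C course lay near 1.5 at both 35 and 40 minutes, so its Trep was poorly fixed. In the bins 6 to 10 kb away the delay was 9.94 minutes.

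The same fall outside the window held for the other 4. The peak at chrIV:805001-806000, between YDR170W-A and HSP42 (a small heat shock protein), had 59.0 minutes in D and 41.5 minutes in C, a delay of 17.5 minutes against 11.9 minutes in the bins 6 to 10 kb away. The peak at chrXII:1005001-1006000, in CNA1 (a catalytic subunit of calcineurin), had 51.6 minutes in D and 34.7 minutes in C, and 16.9 against 11.9 minutes of delay. The peak at chrIV:1354001-1355000, in ECM11 and RPS17B, had 51.0 minutes in D and 35.8 minutes in C, and 15.2 against 10.7 minutes. The peak at chrXV:29001-30000, in HPF1 (a cell wall mannoprotein), had 46.0 minutes in D and 30.8 minutes in C, and 15.2 against 8.98 minutes. Over all 92 C peaks the delay 6 to 10 kb away ran from 1.58 to 12.4 minutes, and it was smaller than at the peak bin for 67 of them. The shared factors lowered the 5 largest delays by over 1.5 times, to 9.15 minutes at YAP1802, 10.5 beside HSP42, 4.65 in CNA1, 6.56 in ECM11 and 6.94 minutes in HPF1. With the 15 minute library as denominator the peak beside HSP42 had 8.36 minutes, and with a 9-kb running mean that in YAP1802 had 11.96 minutes.

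The same allele was compared where Pph3 was present. The median Trep difference was 7.40 minutes for D minus C and 6.41 minutes for B minus A, and the median over bins of the first less the second was 0.996 minutes. That value was 0.166 minutes with scale factors shared by all 4 strains. Bins later by over 10 minutes were 2453 in D against C and 613 (5.44%) in B against A. With the factors shared by 4 strains they were 93 in D against C and 10 in B against A. By classes of C order the latest exceeded the earliest by 4.86 minutes for D minus C and by 2.56 minutes for B minus A. In the latest class the delay was 9.33 minutes for D minus C and 6.73 minutes for B minus A, and in the earliest class it was 4.46 and 4.17 minutes. The median of D minus C less B minus A was 2.696 minutes in class 10, but 0.464 in class 9 and 0.779 in class 8. It lay between 1.23 and 1.59 minutes in classes 4 to 7 and between 0.358 and 0.51 minutes in classes 1 to 3. It thus did not rise steadily from early to late classes. These class values are with each strain's own factors. At chromosome ends D minus C was the smaller difference, with 5.95 minutes against 7.88 minutes for B minus A. The difference of the differences was above 0 on 12 of 16 chromosomes. With 1 library per strain and minute, whether the allele acts differently with and without Pph3 was not tested.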

How the data were processed

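Per the file headers, each deposited ratio divides S-phase reads of a 1-kb bin by G1 reads from the same strain and multiplies by a scale factor that the authors list beside it. Per the submitters' processing notes, Bowtie2 2.2.6, SAMtools 1.7.2 and bedtools 2.26.0 were used with build sacCer3. How each factor was set is not given in the sources used here. The mean ratio of a library differed from its factor by at most 0.005. Depth is unknown and limits the precision of every bin.

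Ratios of bins listed in all 44 tables were used as deposited and after division by the library median. Trep came from a 5-kb running mean, an isotonic fit in time and a crossing of 1.5. These steps were tested on simulated data. Named peaks are the 5 earliest in C and those with the 5 largest and 5 smallest differences. Named chromosomes are the 3 most and 3 least delayed, and named runs the 3 longest, with 2 more that tied in length. The members and lists were chosen with earlier results of these data known. Bins of a strain are not replicates, and no test was run. Gene names came from RefSeq genes of assembly R64. Origin names were not used here. Python 3.11.15, numpy 2.4.6, pandas 2.3.3, scipy 1.17.1 and matplotlib 3.10.9 were used.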

Additional observations from a re-analysis of the deposited data

How the results depend on the processing

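No paired analysis was possible because each strain and minute had 1 library. A value counted as moved when it changed by more than 1 standard deviation over the 16 chromosomes, and a count when it changed by over 1.5 times. For the bulk delay, which has no value per chromosome, any change counted as moved. The bulk delay was 2.76 minutes at 25% and 7.44 minutes at 75% replicated. Scale factors shared by D and C left a median Trep delay of 3.16 minutes, a range over chromosomes of 2.55 minutes, 102 bins later by over 10 minutes and, with the order from A, a late minus early gap of 1.54 minutes. Leaving out each minute in turn gave a Trep delay of 7.22 to 7.50 minutes, a chromosome range of 3.66 to 5.00 minutes and a late minus early gap of 3.05 to 5.69 minutes. The excess delay at C peaks turned to -0.358 minutes with a prominence of 5 times the noise and to -2.36 minutes at D peaks. The relative ratio difference at 35 minutes was -0.0998 at A peaks and -0.0894 in bins 6 to 10 kb from C peaks, the last a reading chosen after seeing the data. Shared peaks numbered 8 within 2 kb, and 9 between the other lists of peaks called with the higher prominence. Bins later by over 5 minutes were 8774 and by over 15 minutes 58. The D minus C less B minus A median was 0.166 minutes with factors shared by 4 strains. Of the other settings for these results, 33 stayed within the margin, and the cause of the moves was not tested. The bulk delay of D rests on factors whose making is not known, and the Trep delay with it. Origins from an annotation were not analysed here.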
